A study of Mus musculus with 11 samples.

Results

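The most abundant non-polyadenylated RNAs of the mouse retina were taken as the features with an arithmetic mean of at least 500 normalised counts over the 11 libraries of the series. This rule gave 712 of 36097 non-coding features, or 1.97% of them. RNA from which polyadenylated transcripts had been removed was sequenced from mouse retinas at postnatal day 21, in 5 wild-type libraries and 6 libraries of Nrl knockout mice. The labels state neither strain nor sex, nor what was deleted in the knockout allele. Replicates carry numbers but no animal names, so every p-value below reflects library-to-library spread, part of which may be technical. Reads in listed features numbered 3238184 to 4150460 for a wild-type library and 3374221 to 4876429 for a knockout one. At the Nrl locus, the feature MSTRG.28375 (chromosome 14, 55521461 to 55522460, plus strand, antisense to Nrl) gave 42.1 ± 9.42 normalised counts in wild-type (SD, n = 5). In knockout it gave 0.126 ± 0.310 (SD, n = 6), so the libraries matched their labels there.

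Removing polyadenylated RNA leaves ribosomal RNA, small structural RNAs made by RNA polymerase III, histone messages and long transcripts that are processed or degraded in the nucleus. Long unspliced transcripts often start beside or inside genes, where they can reflect active promoters and enhancers. The transcription factor Nrl commits young photoreceptors to become rods; without it they develop into cone-like cells. In bulk retina, fewer cells of a type and less RNA per cell cannot be told apart.

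Sequences are printed for the loci where identity matters most to the values that follow, in lower case and 5′ to 3′. The first is the start of Gm42418 on chromosome 17 (mm10, chr17:39846958-39847107, plus strand, GENCODE M21), because the most variable of the very abundant features lies there. RefSeq places the 18S ribosomal RNA pseudogene Rn18s-rs5 over it (39846354 to 39848202), and the annotated transcript CT010467.1 on the minus strand is its reverse complement at 100% of 1244 shared bases.
Gm42418, first 150 bases: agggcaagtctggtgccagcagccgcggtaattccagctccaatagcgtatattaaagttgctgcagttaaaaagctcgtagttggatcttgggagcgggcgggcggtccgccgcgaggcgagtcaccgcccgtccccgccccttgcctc

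The other 4 are promoters, each 250 bases before to 50 bases after a RefSeq gene start (GRCm38.p6), shown because an abundant feature that differed between the genotypes starts within 500 bp of that gene start. They are shown for 2 lower and 2 higher features of high mean. Capitals mark TAATCC, the core bound by the photoreceptor homeodomain factors CRX and OTX2, and TGCTGA, part of the element bound by MAF-family factors such as NRL, on either strand.
Ablim1, chr19:57215983-57216282, minus strand, at MSTRG.46630: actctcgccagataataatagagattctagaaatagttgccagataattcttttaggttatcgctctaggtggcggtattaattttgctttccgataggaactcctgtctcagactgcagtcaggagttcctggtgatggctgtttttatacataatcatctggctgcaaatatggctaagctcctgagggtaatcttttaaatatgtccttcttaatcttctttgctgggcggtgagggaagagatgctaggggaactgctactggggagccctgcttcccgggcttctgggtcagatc
Osbp2, chr11:3722178-3722477, minus strand, at MSTRG.12005: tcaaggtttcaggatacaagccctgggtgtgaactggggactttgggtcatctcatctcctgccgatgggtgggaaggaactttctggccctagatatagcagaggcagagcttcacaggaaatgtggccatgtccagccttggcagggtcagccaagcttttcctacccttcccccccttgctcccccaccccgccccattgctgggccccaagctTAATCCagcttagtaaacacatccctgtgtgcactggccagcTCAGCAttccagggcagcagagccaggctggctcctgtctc
Gm41263, chr15:7442051-7442350, plus strand, at MSTRG.30539: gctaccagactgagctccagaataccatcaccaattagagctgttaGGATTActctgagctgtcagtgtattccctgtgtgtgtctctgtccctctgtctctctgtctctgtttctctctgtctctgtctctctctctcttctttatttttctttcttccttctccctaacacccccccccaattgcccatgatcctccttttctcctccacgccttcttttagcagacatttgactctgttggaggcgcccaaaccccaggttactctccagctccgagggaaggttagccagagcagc
Gm31615, chr17:88388609-88388908, minus strand, at MSTRG.40948: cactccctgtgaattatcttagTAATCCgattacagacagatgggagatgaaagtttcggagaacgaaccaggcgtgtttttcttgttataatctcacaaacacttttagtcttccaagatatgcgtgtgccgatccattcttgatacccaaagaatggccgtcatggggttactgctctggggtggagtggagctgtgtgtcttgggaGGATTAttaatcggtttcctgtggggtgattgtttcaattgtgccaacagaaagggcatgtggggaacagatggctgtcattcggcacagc

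A small fraction of features held most of the listed reads in both genotypes. The 712 abundant features took 77.6 ± 1.74% of listed reads in the wild-type libraries (SD, n = 5) and 78.5 ± 2.89% in the knockout libraries (SD, n = 6). The difference of 0.899 percentage points was smaller than the spread between libraries (exact two-sided permutation test, p = 0.576), and single libraries ranged from 74.7% in wild-type 2 to 82.7% in knockout 2. The 10 features of highest mean took 39.3 ± 4.42% in wild-type and 41.9 ± 7.52% in knockout (exact two-sided permutation test, p = 0.511). Knockout 5, at 32.9%, and knockout 2, at 53.2%, were the extremes, and both are knockout libraries.

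Short features ranked high. Only 44 of the 712 were under 1 kb, a length limit set after the data were seen, and together they span 11.2 kb; they held 27.9 ± 4.11% of listed reads in wild-type and 28.5 ± 4.92% in knockout. The other 668 span 14832 kb and held 49.7 ± 4.22% and 50.0 ± 3.07%. Per kb of listed length, the short features had a median of 16271 normalised counts and the longer ones 90.1. The rule takes no account of length, so a short feature needs a higher level per kb to enter. Part of this gap is therefore set by the rule. Lengths ran from 102 bp to 365579 bp, with a median of 11819 bp, against 235 bp over all features of the table. A rule by counts favours long features, so this contrast may also follow from the choice. In the number of reads, 26 features had means of at least 10000 normalised counts, 344 lay between 1000 and 10000, and 342 between 500 and 1000.

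**Figure D1:**
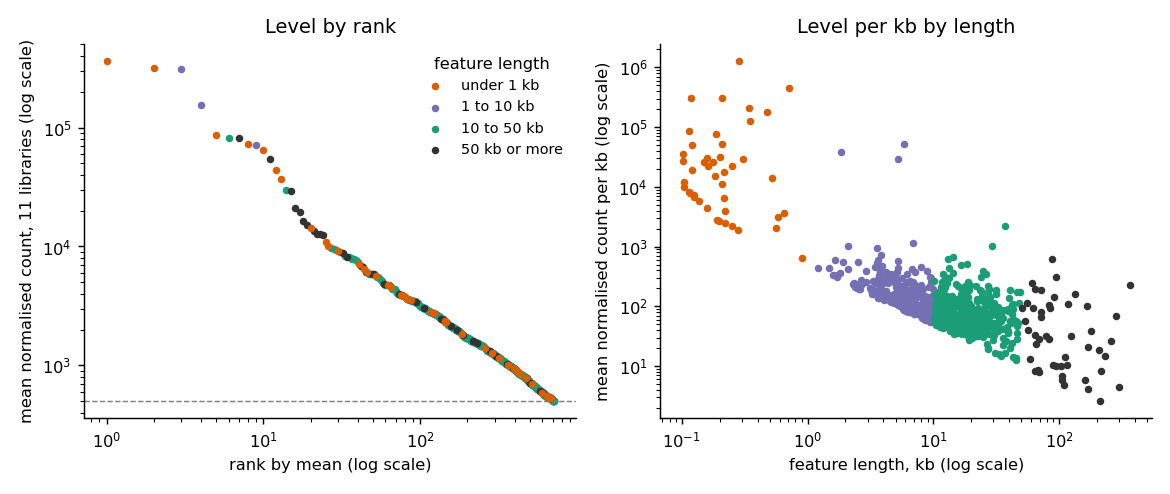
The left panel plots the mean normalised count over 11 libraries against rank for the 712 abundant features (both axes log scale, dashed line at 500), and the right panel the mean per kb against feature length. Features under 1 kb, in orange, hold 10 of the 26 means of at least 10000 and have the highest levels per kb. The rule of 500 normalised counts per feature sets a higher floor per kb for shorter features.

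The most abundant feature was MSTRG.7707, an intergenic stretch of 283 bp on chromosome 10 (11491975 to 11492257, minus strand). Its wild-type libraries 1 to 5 held 498086, 284965, 302454, 313933 and 269979 normalised counts, and its knockout libraries 232080 at the lowest, 390522 at the median and 546258 at the highest. The groups overlapped, with a log2 difference of 0.18 (SE 0.20, limma adjusted p = 0.557). It alone took 8.58 ± 1.59% of listed reads in wild-type and 9.81 ± 2.27% in knockout. Per kb it had 1282480 normalised counts, ahead of MSTRG.47665 on chromosome 2 (707 bp, 450915 per kb), which ranked next by mean as well.

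Of the 12 features of highest mean, 11 were not called between the genotypes and 1 was. Those under 1 kb were MSTRG.7707, MSTRG.47665, MSTRG.17558 on chromosome 11, MSTRG.56381 on chromosome 3, MSTRG.4063 on chromosome 1 and MSTRG.95111 on chromosome 9. MSTRG.95111, 349 bp opposite to the mitochondrial leucyl-tRNA synthetase gene Lars2, held 50327 ± 14401 normalised counts in wild-type and 39056 ± 25035 in knockout (log2 change -0.53, limma adjusted p = 0.363). It was called lower without knockout 2 (-0.81, limma adjusted p = 0.00619), so that 1 library decided the call. MSTRG.43705 and MSTRG.73733, of 119 and 115 bp, joined these by level per kb, at 310728 and 87355 normalised counts. MSTRG.73733 likewise had no call with all libraries (-0.52, limma adjusted p = 0.468) and was lower without knockout 2 (-0.83, limma adjusted p = 0.0288).

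The longer features among these 12 lie in annotated genes in 5 of 6 cases. MSTRG.66281 (36869 bp, chromosome 5) lies in the non-coding gene Gm26954, opposite to Pclo, which encodes the presynaptic scaffold piccolo, and held 92776 ± 16767 normalised counts in wild-type and 73336 ± 11945 in knockout (log2 change -0.34, limma adjusted p = 0.0823). MSTRG.36357 (86843 bp, chromosome 16) lies in A630036G19Rik and held 61070 ± 11242 and 48887 ± 6130.0 (-0.31, limma adjusted p = 0.124). Its 5′ end lies 433 bp from a RefSeq start of Robo2 on the same strand, and whether its reads belong to Robo2 transcripts was not tested. MSTRG.36357 was called lower without wild-type 1 (-0.43, limma adjusted p = 0.00517), and MSTRG.66281 without knockout 1 (-0.42, limma adjusted p = 0.0332). MSTRG.44687, 1854 bp on chromosome 19 opposite to AC166748.2, ran from 29379 to 112166 within the knockout group alone.

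By position, 323 of the 712 were intergenic, 144 lay in an annotated non-coding gene, 141 were antisense to a coding gene, 47 antisense to a non-coding gene and 57 on the strand of a coding gene. No exon of GENCODE M21 was touched by 416 of them, and 28 had 50% or more of their length over exons. Features within 10000 bp of each other on 1 strand fell into 574 runs, of which 65 held 2 or more abundant features, 203 in all. In 57 of the 65 runs every feature had the same call, and no run held both higher and lower features. Runs of neighbours are therefore not independent of each other in the counts that follow.

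Abundant features paired on opposite strands of 1 place held different values on each, so reads were assigned by strand. There were 8 such pairs, overlapping by at least 50% of the longer feature, and 6 of them were of features under 1 kb. MSTRG.89519 and MSTRG.89520 share start and end (chromosome 9, 3258819 to 3258938) yet held 6041 and 2303 normalised counts on average. The ratio of plus to minus there ran from 0.667 in knockout 5 to 5.60 in wild-type 5. For MSTRG.37877 and MSTRG.37876 on chromosome 17 the stronger strand led in every library, by 16.3 to 45.3 times.

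The ribosomal DNA pair on chromosome 17, part of which is printed above, varied most in absolute terms. The plus strand, MSTRG.39223 (39842997 to 39848829), held 488737, 222918, 329709, 229572 and 230555 normalised counts in wild-type 1 to 5, and in knockout 177358, 328703 and 407530 as lowest, median and highest. The minus strand, MSTRG.39224 (39843006 to 39848201), held 74652, 18768, 204435, 123135 and 331363 in wild-type, and 12906, 43338 and 733423 in knockout. The plus strand was higher than the minus strand by 23.8 times in knockout 1, and in knockout 2 the ratio was 0.556. The pair took 11.5 ± 3.14% of listed reads in wild-type and 11.4 ± 5.93% in knockout, with 23.2% in knockout 2. Neither strand was called between genotypes (log2 differences 0.09 and -0.91, limma adjusted p = 0.804 and 0.631).

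A pair of short intergenic features on other chromosomes ordered the 11 libraries exactly as the minus strand of the ribosomal DNA did. MSTRG.72086 (177 bp, chromosome 6, 3201446 to 3201622) held 2.38% to 3.20% of the value of MSTRG.39224 in every library, and MSTRG.84560 (183 bp, chromosome 8, 3754400 to 3754582) 1.60% to 2.50%. MSTRG.72086 held 2297, 507, 5860, 3797 and 10443 normalised counts in wild-type 1 to 5, and 308, 1348 and 21111 in knockout as lowest, median and highest. Of all abundant features these were the 2 with the same order, and the next, MSTRG.44141 on chromosome 18, had a Spearman rho of 0.855 over the 11 libraries. The median rho of the others was 0.100; this is a description over libraries that share their depth and scaling, with no test. Whether reads of these short features come from ribosomal RNA was not tested.

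**Figure D2:**
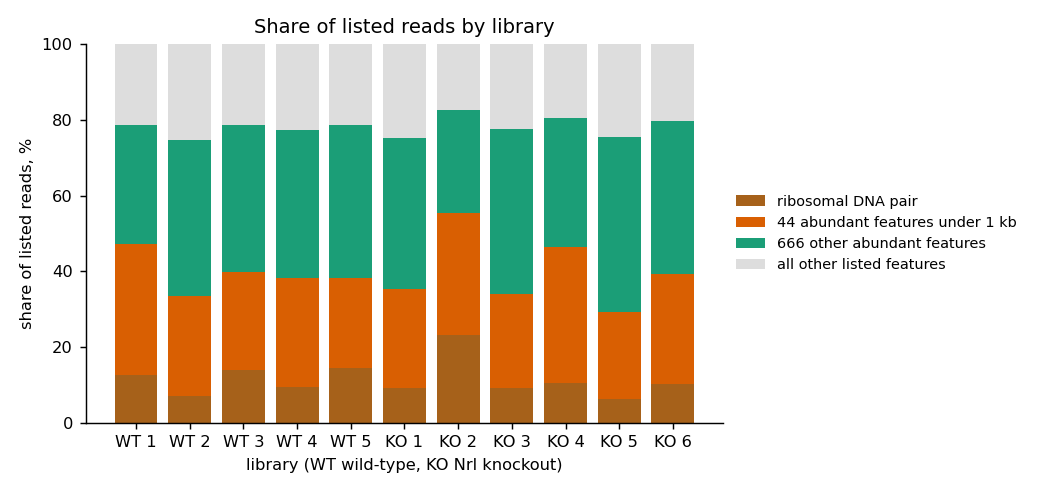
Stacked bars give the share of listed reads (%) per library in the ribosomal DNA pair, the 44 abundant features under 1 kb, the 666 other abundant features and all other listed features. The abundant features together stay between 74.7% and 82.7%, while the ribosomal DNA pair reaches 23.2% in knockout 2.

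Between libraries of 1 genotype, short abundant features had a larger median spread than longer ones. The coefficient of variation, the SD over the mean within a genotype averaged over both, had a median of 19.7% over the 712 features and of 22.9% over the 3662 features with means of 50 to 500. Counting error, which shrinks as the mean grows, was 3.37% and 10.6% of the mean. Features under 1 kb had a median of 32.7% and longer ones 18.9%. It was under 10% for 61 features and over 50% for 11, of which 10 were under 1 kb. Without wild-type 1 the median over the 712 dropped to 14.8%.

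The steadiest features were long. MSTRG.52764 (45064 bp, chromosome 2, antisense to Slc24a3, a potassium-dependent sodium-calcium exchanger gene) had a coefficient of variation of 4.19%. It held 620, 650, 649, 676 and 670 normalised counts in wild-type, and 456, 503 and 525 in knockout as lowest, median and highest. The groups did not overlap, and the difference of -0.39 was called (SE 0.14, limma adjusted p = 0.0353). It was not called in 7 of 11 limma fits that left out 1 library (adjusted p up to 0.0806). On 9 libraries, without wild-type 5 and knockout 2, neither edgeR (adjusted p = 0.179) nor limma (adjusted p = 0.109) called it. MSTRG.93435 (18422 bp, chromosome 9, starting opposite to 1190002N15Rik) held 2731 ± 214 and 2634 ± 115, with overlapping groups (-0.05, limma adjusted p = 0.831). MSTRG.55020, MSTRG.45715, MSTRG.41612 and MSTRG.29912 were the other steady ones, at 5.11% to 6.33%. Of these MSTRG.29912, an intergenic feature of 14060 bp on chromosome 14, rose from 122 ± 6.37 to 930 ± 69.3 (2.92, limma adjusted p = 9.02e-15). MSTRG.45715 (A830019P07Rik, chromosome 19) was just inside the threshold at -0.36 (limma adjusted p = 0.0476). It lost the call in 9 of 11 fits without 1 library (adjusted p up to 0.105), in edgeR (adjusted p = 0.265) and DESeq2 (adjusted p = 0.0898), in limma on the same 9 libraries, without the filter and with a pseudocount of 10. MSTRG.55020 held 1269 to 1453 normalised counts in wild-type and 993 to 1125 in knockout, without overlap. It missed the threshold (-0.33, limma adjusted p = 0.0649) but passed with TMM scaling (adjusted p = 0.0496), median centring (adjusted p = 0.0460), a filter at a mean of 20 (adjusted p = 0.0345) and without wild-type 1 (adjusted p = 0.0408). MSTRG.41612 had no call (0.14, limma adjusted p = 0.534), and its groups overlapped.

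The least steady were short, and the same libraries stood out across them. Wild-type 1 was the highest of its group in 33 of 44 features under 1 kb, knockout 2 the highest of its group in 26, and knockout 5 the lowest of its group in 35. Wild-type 1 had the fewest listed reads (3238184) and the most normalised counts per read, 1.37. Knockout 5 had the fewest per read, 0.758, and knockout 2 had 1.01. The part of depth and scaling in these deviations was not tested. Knockout 4 was above its group mean in 40 of the 44, and these features took 35.9% of its listed reads, the highest share of the 11 libraries. Median deviations per library ran from -0.75 to 0.52 on the log2 scale for the short features and from -0.06 to 0.08 for the 668 longer ones. The longer ones still leaned by library, with knockout 6 above its group mean in 471 of 668 and wild-type 2 in 275. MSTRG.71972 (216 bp, chromosome 5), which overlaps an annotated non-coding gene on its strand, held 3228, 27773, 960, 1239 and 1364 normalised counts in wild-type and 589, 1289 and 1646 in knockout. A single library, wild-type 2, was far above the other 10. In MSTRG.72085, on the strand opposite to MSTRG.72086, wild-type 3 held 4703 while the other wild-type libraries held 138 to 406. Without wild-type 3 it was called higher in knockout (1.34, limma adjusted p = 0.0314), against 0.50 with it (adjusted p = 0.745).

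**Figure D3:**
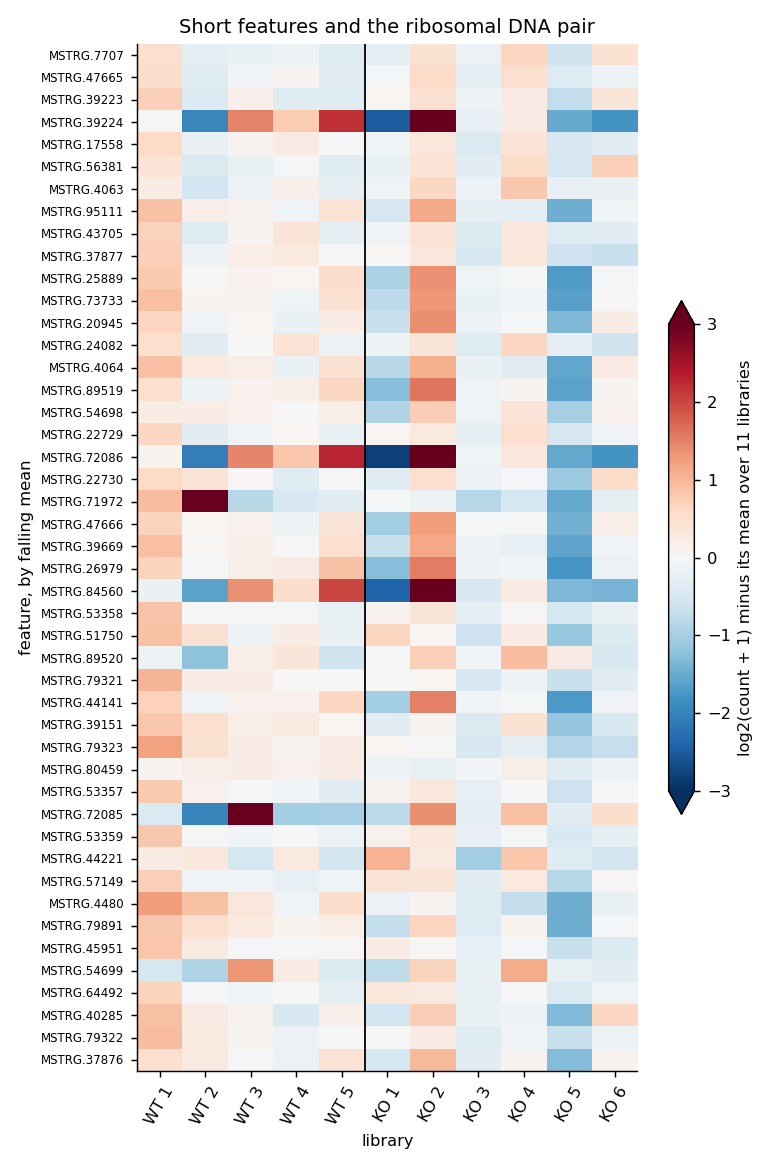
Rows are the 44 abundant features under 1 kb and the 2 strands of the ribosomal DNA pair, and columns the 11 libraries; colour is log2(normalised count + 1) minus the row's mean (scale limited to -3 and 3). Wild-type 1 and knockout 2 are mostly red and knockout 5 mostly blue, and MSTRG.39224, MSTRG.72086 and MSTRG.84560 share their pattern.

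Between the genotypes, 128 of the 712 abundant features were higher in knockout and 181 lower, and 403 were not called. Calls are limma adjusted p below 0.05 on log2(normalised count + 1), with Benjamini-Hochberg adjustment over all 21395 features with a mean of at least 5. The share called was 43.4%, against 28.1% of all tested features (15.6% higher and 12.6% lower), and against 42.1% of the features with means of 50 to 500, so it was near that of the next lower level. The median log2 difference was -0.19 over the abundant features and -0.02 over all tested. The groups did not overlap in 246 abundant features (34.6%), against 20.2% of all tested and 33.2% of those with means of 50 to 500.

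The choice by mean bears on these counts. Of the 712, 75 reached a mean of 500 in knockout only, 69 of them called higher, and 99 in wild-type only, 77 of them called lower; these had to differ to some extent. Among the 538 with both group means of at least 500, 59 were higher and 104 lower, 30.3% together. Differences of at least 2-fold were called for 97 higher and 90 lower features, or 26.3% of the 712 against 22.4% of all tested. Among the 3662 features with means of 50 to 500 they were called for 1021, so abundant features did not stand out from that level. By read share, the features called higher went from 4.41 ± 0.403% of listed reads in wild-type to 13.9 ± 3.03% in knockout, and those called lower from 10.9 ± 0.403% to 4.43 ± 0.658%. These shares describe features picked by the same contrast. Features that were not called took 62.2 ± 2.15% and 60.2 ± 6.22%.

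**Figure D4:**
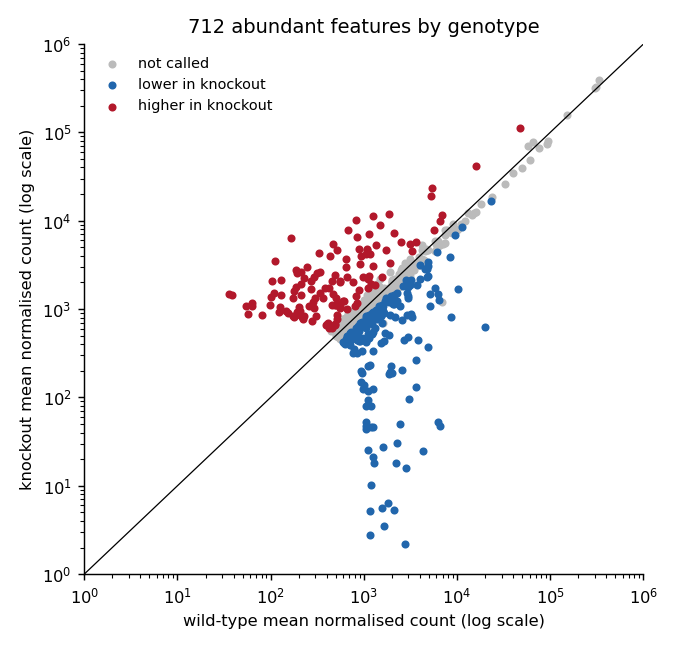
Each point is 1 of the 712 abundant features, with its wild-type mean (n = 5) on the x axis and its knockout mean (n = 6) on the y axis, both normalised counts on log scales, and the line marks equal means. Lower features (blue, 181) reach down to 2.198 normalised counts in knockout, whereas higher features (red, 128) start from 35.4 or more in wild-type.

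Calls were then counted by length and position, beside the share called among all tested features of the same kind. Under 1 kb, limma called 0 of 44 higher and 5 lower (11.4%, against 23.4% of all tested), while 8 had a positive and 36 a negative log2 difference. Of the 486 features under 1 kb with means of 50 to 500, 79 were called higher and 140 lower (45.1%). At an unadjusted p below 0.05 limma gave 0 higher and 7 lower, and edgeR and DESeq2 on 9 libraries each called 0 higher and 12 lower. Without knockout 2, high in many of these short features, limma called 13 lower, and without wild-type 1 it called 3. From 1 to 10 kb 48 of 264 were higher and 79 lower (48.1% called, against 40.7%). From 10 to 50 kb they were 66 of 356 and 84 (42.1%, against 40.9%), and at 50 kb or more 14 of 48 and 13 (56.2%, against 46.0%). Of the features antisense to a coding gene 24 of 141 were higher and 50 lower (52.5%, against 33.1%), and of those in an annotated non-coding gene 28 of 144 and 43 (49.3%, against 23.8%). Intergenic features gave 59 of 323 and 69 (39.6%, against 27.1%), and those antisense to a non-coding gene 15 of 47 and 12 (57.4%, against 32.5%). On the strand of a coding gene 2 of 57 were higher and 7 lower (15.8%, against 10.4%). Among features with means of 50 to 500, 41.4% were called from 1 to 10 kb, 44.8% from 10 to 50 kb and 38.9% above. By position these were 49.5% antisense to a coding gene, 34.8% in an annotated non-coding gene and 41.5% intergenic. Antisense to a non-coding gene it was 43.7%, and on the strand of a coding gene 16.5%.

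The largest falls left almost no reads in knockout. MSTRG.46971 (chromosome 2, 5075108 to 5083538, minus strand, intergenic) held 3747, 2849, 2580, 2176 and 2318 normalised counts in wild-type 1 to 5, and 0, 2.53 and 3.84 in knockout as lowest, median and highest. A count of 0 allows up to 3 reads, or 2.28 to 3.12 normalised counts in a knockout library, counting error only. This is -9.89 on the log2 scale (SE 0.30, limma adjusted p = 6.67e-19), a size that depends on the pseudocount. Its domain in the deposited table, a chromosomal interval for which the authors list changed mRNAs, names Optn, Camk1d, Mcm10 and Ucma as lower. Of the 181 lower features 22 averaged under 50 normalised counts in knockout, and of the 128 higher features 2 averaged under 50 in wild-type.

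Among the other 9 of the 10 largest falls, MSTRG.74898 (chromosome 6, 83698281 to 83701902, plus strand) is antisense to Vax2os, a retinal long non-coding RNA, and held 2810, 2050, 1940, 1994 and 1791 in wild-type and 3.91, 5.15 and 7.47 in knockout (log2 change -8.40, limma adjusted p = 3.57e-21). MSTRG.84881 (chromosome 8, 13507158 to 13524877, plus strand) is intergenic in a domain that lists the rhodopsin kinase gene Grk1 as lower, and held 7217, 5729, 7012, 6141 and 6833 in wild-type and 34.1, 48.4 and 55.6 in knockout (-7.10, limma adjusted p = 3.21e-21). No knockout library of either feature came near the lowest wild-type one. MSTRG.91833 (chromosome 9, 59918954 to 59932751), in Gm20275 and antisense to the myosin gene Myo9a, went from 1178 ± 302 to 5.13 ± 2.79 (-7.69); its domain lists Nr2e3, the nuclear receptor that represses cone genes in rods. MSTRG.91064 (chromosome 9, 45805264 to 45822682), antisense to Cep164, a gene of centriole appendages needed for cilia, went from 4348 ± 1277 to between 18.6 and 31.5 (-7.37). MSTRG.23521 in Gm11342, antisense to Cmah, which encodes the enzyme that hydroxylates sialic acid precursors, went from 1631 ± 413 to 3.51 ± 1.76 (-8.56). MSTRG.16172, MSTRG.40681, MSTRG.27653 and MSTRG.45803 completed the 10 largest falls, at -8.40, -8.00, -7.98 and -7.42. The limma adjusted p of the 10 lay between 3.21e-21 and 1.04e-17.

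The largest rises started from wild-type means of 35.4 normalised counts or more. MSTRG.13234 (chromosome 11, 35874118 to 35900671, plus strand) is antisense to Wwc1, which encodes the Hippo pathway scaffold KIBRA, and held 210, 150, 130, 191 and 152 normalised counts in wild-type and 5482, 6551 and 7062 in knockout (log2 change 5.28, SE 0.15, limma adjusted p = 2.4e-19). The lowest knockout library was thus far above the highest wild-type one. MSTRG.62942 (chromosome 4, 107126642 to 107138863), in the non-coding gene Gm12802, held 129, 99.7, 117, 118 and 90.8 in wild-type and 2876, 3445 and 4520 in knockout (4.97, limma adjusted p = 2.64e-18). MSTRG.44705 (chromosome 19, 8476697 to 8495149), intergenic in a domain of Slc22 organic ion transporter genes listed as lower, rose from 35.4 ± 6.80 to 1482 ± 291 (5.34). MSTRG.27663 in A930038B10Rik on chromosome 14 rose from 38.7 ± 10.8 to 1427 ± 295 (5.18). A further 5 were MSTRG.1570 in a domain that lists Nab1 (4.32), MSTRG.21531 antisense to Pomt2 (4.29), MSTRG.10623 antisense to the ETS factor gene Elk3 (4.21), MSTRG.38356 on chromosome 17 (4.04) and MSTRG.73754 in one that lists Mpp6 (3.91). Their limma adjusted p lay between 2.04e-16 and 1.6e-15 apart from MSTRG.1570, at 1.71e-17.

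The highest rise by number of reads was on chromosome 12. MSTRG.18577 (5808193 to 6173771, plus strand, 365579 bp), in the non-coding gene Gm32442, had rank 7 of all features and is the 1 called feature among the 12 of highest mean. It held 43791, 40993, 46891, 49670 and 57874 normalised counts in wild-type and 82400, 110529 and 142863 in knockout (log2 change 1.19, SE 0.15, limma adjusted p = 4.59e-07), without overlap. It heads a run of 14 abundant features up to 6513350, in a domain that lists Klhl29 as higher. All 14 were higher, by 1.19 to 2.19 on the log2 scale, and summed to 69408 normalised counts in wild-type and 192107 in knockout. They make up 14 of the 26 higher features on chromosome 12, out of 54 abundant ones there. Of all tested features on that chromosome 384 of 1354 were higher and 142 lower.

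Counts on other chromosomes follow beside those of all tested features there; differences between chromosomes were not tested. On chromosome 15, 15 of 30 abundant features were higher and 7 lower, and 204 and 99 of 914 tested ones. Chromosome 3 had 3 higher and 13 lower of 57, and 110 and 129 of 1017 tested. Chromosome X had 0 and 6 of 9 by limma (0 and 6 at an unadjusted p below 0.05, 0 and 5 by edgeR, 0 and 6 by DESeq2), and 90 and 55 of 702 tested. Of these 6 lower features, 4 lie in 1 run (14680327 to 14971526, plus strand) and are not independent. Chromosome 16 had 3 higher and 0 lower of 30 by limma, with 6 lower at an unadjusted p below 0.05 and 0 lower by edgeR and DESeq2, and 89 and 56 of 666 tested. The count of lower features there depended on the libraries used: limma called 17 of the 30 lower without wild-type 1 and 2 without knockout 5. A run of 7 features on chromosome 7 (40130579 to 40426927, plus strand), led by MSTRG.79316 in 4933404I11Rik, had 6 lower, at -0.82 to -0.39 over all 7. MSTRG.79316 held 4874 ± 1784 in wild-type, where library 1 held 7991 and the others 3502 to 4552, and 3049 ± 657 in knockout (-0.64, limma adjusted p = 0.00947). It was named after its values were seen.

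**Figure D5:**
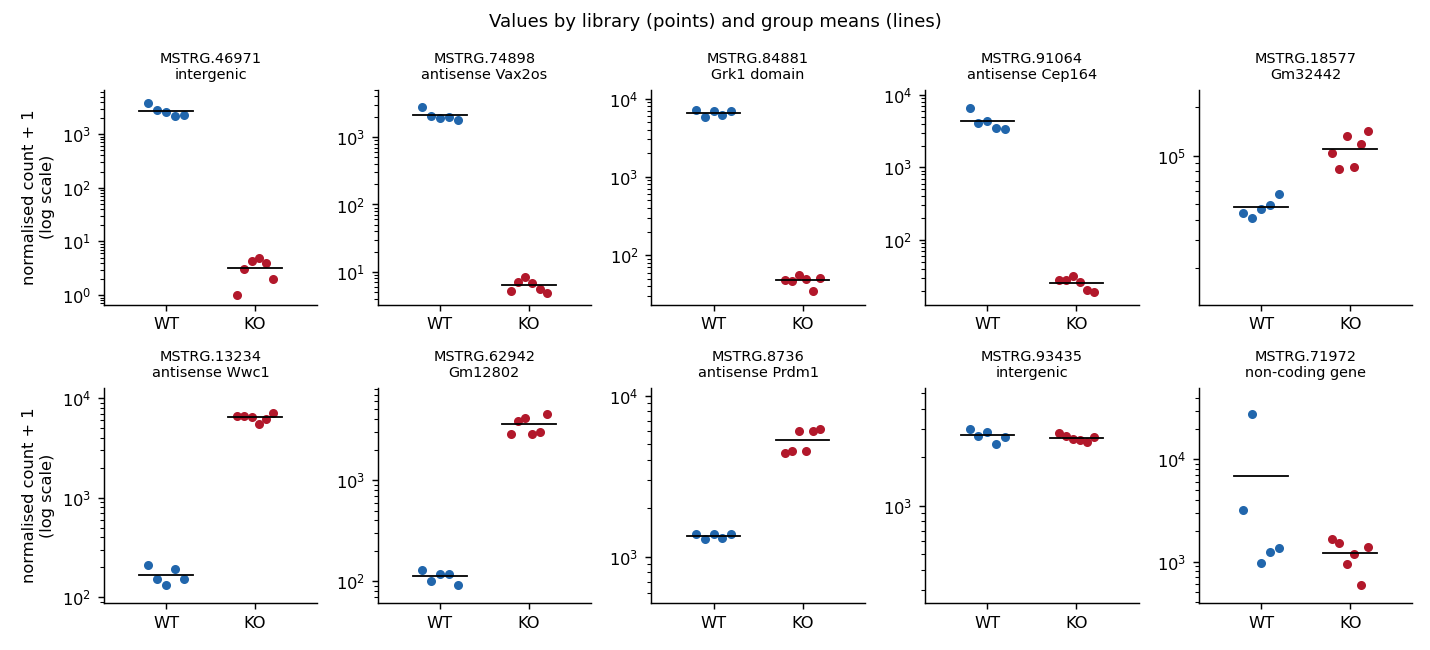
Each panel shows 1 feature, with a point per library (5 WT, 6 KO), a line at the group mean and the normalised count + 1 on a log scale whose range differs by panel. The first 4 features fell, MSTRG.18577, MSTRG.13234, MSTRG.62942 and MSTRG.8736 rose, MSTRG.93435 overlapped between groups, and in MSTRG.71972 wild-type 2 stands at 27773.

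Abundant features were then set beside the genes whose mRNA the authors list as changed. Of 47 at such a gene, overlapping it or starting beside it, 26 were called in the direction of the mRNA (55.3%), as were 783 of all 1418 tested features at such genes (55.2%). Of the 309 called features 29 lay at such a gene. In 15 cases both were higher and in 11 both lower, in 3 the feature was lower and the mRNA higher, and in 0 cases was the feature higher with the mRNA lower. A further 18 abundant features at listed genes were not called, 11 at lower and 7 at higher mRNAs. Among all tested features, 13 of 619 at lower mRNAs were higher, and 32 of 799 at higher mRNAs were lower. Of the called features at such genes, 89.7% of the abundant ones and 94.6% of all tested ones had the direction of the mRNA. The pair of features antisense to Prdm1, the gene of a repressor that favours photoreceptor over bipolar fate, were both higher. MSTRG.8736 (chromosome 10, 44471744 to 44487484) held 1395, 1296, 1380, 1301 and 1386 normalised counts in wild-type and 4412, 5300 and 6209 in knockout (1.96, limma adjusted p = 1.53e-11), and MSTRG.8735, which contains it, rose from 888 ± 86.5 to 4810 ± 871 (2.42). MSTRG.12160, antisense to the calcium/calmodulin kinase gene Camk2b, rose from 1125 ± 96.2 to 7153 ± 1346 (2.65); it was named after its values were seen. The features lower beside a higher mRNA were MSTRG.64877 at Igsf21 (-1.81), MSTRG.70665 at Pitpnm2 (-0.87) and MSTRG.69011 at Shroom3 (-1.16).

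The same lists sort the abundant features by domain. In domains that list only higher mRNAs 66 of 167 abundant features were higher and 31 lower, and in domains that list only lower mRNAs 6 of 95 were higher and 36 lower. Where both kinds are listed 15 of 82 were higher and 27 lower, and where none is listed 41 of 368 and 87. Over all tested features the counts were 1619 higher and 431 lower of 5436 in higher-only domains, and 272 and 767 of 2992 in lower-only domains. Where both kinds are listed they were 504 and 439 of 3015, and where none is listed 932 and 1058 of 9952. No source at hand says how the authors made the domains and lists, and features of 1 domain are not independent.

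Abundant features that start opposite to a coding gene start were 54 of 712, or 7.58%, against 6.20% of all tested. Of these 7 were higher and 15 lower (40.7% called), and of all 1327 tested features of this kind 187 were higher and 163 lower (26.4%). Of the 378 of this kind with means of 50 to 500, 30.7% were called. MSTRG.46630 (chromosome 19, 57216162 to 57243968, plus strand) starts 130 bp from the start of Ablim1, a gene of an actin-binding LIM protein, and held 10612, 8702, 10977, 9959 and 10296 normalised counts in wild-type and 1246, 1661 and 2010 in knockout (-2.61, limma adjusted p = 1.19e-13). MSTRG.12005 (chromosome 11, 3722372 to 3733430, plus strand), beside the oxysterol-binding protein gene Osbp2, went from 3292 ± 659 to 808 ± 204 (-2.05). On the strand of their genes, MSTRG.30539 at Gm41263 (chromosome 15, 7442154 to 7456506) rose from 6974 ± 750 to 11621 ± 2038 (0.72) and MSTRG.40948 at Gm31615 (chromosome 17, 88331928 to 88388759) from 647 ± 42.9 to 3667 ± 304 (2.50). The Ablim1 window held no match, the Osbp2 window held 1 of each motif, Gm41263 held 1 TAATCC-type match and Gm31615 held 2.

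Of the abundant features 59 start within 500 bp of a gene start with a RefSeq promoter entry. TAATCC or its reverse complement GGATTA was found in 3 of 15 promoters at lower features, 2 of 11 at higher and 1 of 33 at features not called, and in 7.06% of 32544 promoters of the same length. TGCTGA or its reverse complement TCAGCA was found in 2 of 15, 1 of 11 and 4 of 33, and in 19.5% of all promoters. The motifs do not overlap in the printed sequences. A match describes letters in the window, not a bound site.

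Few abundant features overlap listed genes of retinal cell types. Features were counted here only where they overlap a listed gene on either strand. Of 28 genes on the rod list 1 had an abundant feature (Vax2os, above), and of 15 photoreceptor transcription factor genes 1 (Prdm1, with 2 features). Vax2os is also on the list of long non-coding RNA genes. The lists were chosen with earlier results of these data known, so this 1 feature is no separate support for a loss at rod genes. Among all tested features of these lists, 4 were higher and 40 lower of 56 at rod genes, and 14 and 12 of 36 at the transcription factor genes. Cone, bipolar, Müller glia, amacrine, ganglion, horizontal, pigment epithelium and lens genes had 0 overlapping abundant features, and at vascular, microglia and erythrocyte genes no feature was tested. Without overlap, MSTRG.6950 (mean 647, not called) starts 181 bp from a RefSeq start of Prox1, a gene of the amacrine and horizontal lists. Of the genes that mark glial stress, Cebpd had 1: MSTRG.34675 (chromosome 16, 15889089 to 15894413), on the strand of this C/EBP transcription factor gene, rose from 228 ± 48.8 to 831 ± 243 (1.84, limma adjusted p = 1.95e-08). All 5 tested features of that list, at any level, were higher; the part of glial stress in the other results was not tested. At polymerase III and small nuclear RNA genes no feature was tested, so the level of these RNAs cannot be read here. At small nucleolar RNA host, histone and microRNA genes only 1, 3 and 2 features were tested, and 0 were abundant.

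Long non-coding RNA genes held 11 abundant features at 4 genes, 2 higher, 3 lower and 6 not called. Of all 82 tested features of this list 4 were higher and 19 lower. At Otx2os1, the long transcript opposite to the photoreceptor regulator gene Otx2, 6 lie on its strand and 1, MSTRG.27976 (-1.38, lower), on the other. MSTRG.27978 (chromosome 14, 48735582 to 48755083) rose from 3149 ± 440 to 5451 ± 1345 (0.77, limma adjusted p = 0.000467) and MSTRG.27977 from 1196 ± 283 to 1910 ± 582 (0.66, limma adjusted p = 0.00943). MSTRG.27975 (0.53) missed the threshold (limma adjusted p = 0.0505) but passed in edgeR (adjusted p = 0.00648) and DESeq2 (adjusted p = 0.0132). The remaining 3 ran from -0.43 to 0.27. Both features in Snhg14, a host transcript of imprinted small nucleolar RNAs, were not called, at -0.31 and -0.21.

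At the edge of the rule, the last features inside were MSTRG.10215, with 593 ± 149 normalised counts in wild-type and 426 ± 87.2 in knockout, and MSTRG.24221, with 505 ± 61.3 and 496 ± 87.0. Just outside were MSTRG.89103, with 558 ± 78.5 and 449 ± 90.3, and MSTRG.38106, antisense to the calcium channel gene Cacna1h, with 99.9 ± 29.9 and 831 ± 165.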

How the data were processed

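Non-polyadenylated RNA was read as 50-bp stranded single-end reads from retinas of 2 genotypes (wild-type, 5 libraries; Nrl knockout, 6), per the labels' protocols. The deposited signal columns hold read counts per feature normalised with DESeq2 by the authors, per the file headers. No source at hand names the assembler, the counter or the treatment of reads that fit several places. Cufflinks 2.2.1, Cuffdiff and TopHat2 2.0.10 appear in the submitters' processing notes, beside the builds mm9 and mm10. The deposited log2 fold changes, scores and p-values are, per the file headers, a comparison made by the authors and were not used for calls.

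The table has 36180 lines for 36097 features, 83 of them on 2 lines and used once. Positions are mm10, counted from 1. Values came out as whole reads in 100% of cases (tolerance 0.001). Calls come from limma 3.58.1 (lmFit, eBayes with trend and robust, R 4.3.3) on log2(normalised count + 1), for 21395 features with a mean of at least 5, as a two-sided test of genotype alone. On the log2(value + 1) scale changes of low features are understated. The fit was tested on simulated data of 21395 features, in which limma made 1 false call and found 50 of 66 simulated 4-fold changes, 22 of 74 at 2-fold and 2 of 60 at 1.5-fold. Simulated counts were drawn independently with a single fixed dispersion, without shifts shared by the features of a library. The changed features were drawn from all tested ones, so these rates do not describe the abundant features. Whole reads of 9 libraries were also tested with edgeR 4.0.16 and DESeq2 1.42.0, without wild-type 5 and knockout 2, in which a read equals almost exactly 1 normalised count. These tools called 5733 and 5468 features of 21395. Other alternatives changed the pseudocount, filter, scaling and membership, added the replicate number as a block, or left out libraries.

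Features were placed with GENCODE M21, and promoters came from RefSeq. Named features are the 12 of highest mean, the 8 highest per kb, the 10 largest falls and rises, the 6 least and 6 most variable, up to 3 for each gene list, those at the threshold and the feature at Nrl; others are marked, and 1 of the rises is not reported here. Members and lists were chosen with earlier results of these data known. Intervals and floors cover counting error only.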

Additional observations from a re-analysis of the deposited data

Results flagged for a closer look

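In 15 of 116 sets of values tested, 1 library lay apart from the rest of its group by Dixon's criterion at 95%; chance gives about 1 in 20. The 6 features named for the largest coefficients of variation supplied 5 of the 15, as that choice favours, so the share is not read against chance; 3 of them, MSTRG.39224, MSTRG.72086 and MSTRG.84560, order the libraries alike. Wild-type 1 was apart in MSTRG.7707, at 498086 normalised counts, where the next wild-type library held 313933, in MSTRG.74898 at 2810, in MSTRG.1570 at 133, in MSTRG.38356 at 199 and in MSTRG.10215 at 849. Knockout 2 was apart in MSTRG.39224, at 733423 against 86714 in the next knockout library, in MSTRG.95111 at 87420, in MSTRG.73733 at 21976, in MSTRG.72086 at 21111 and in MSTRG.84560 at 13372. The ribosomal DNA pair's share of 23.2% in that library was apart as well. Single libraries were also apart in MSTRG.71972 (wild-type 2, 27773), MSTRG.72085 (wild-type 3, 4703), MSTRG.29912 (wild-type 4, 111) and MSTRG.8735 (wild-type 5, 1036). The part of library preparation in these values was not tested.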

How the results depend on the processing

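The counts of 128 higher and 181 lower abundant features ranged from 122 to 135 and from 149 to 231 when 1 library was left out, with most lower ones without wild-type 1. They were 125 and 191 with TMM scaling, 124 and 192 with median centring, 131 and 147 with edgeR, 133 and 159 with DESeq2 and 129 and 153 with limma on the same 9 libraries. A mean of at least 300 gave 197 and 289 of 1129 features, a mean of at least 1000 gave 71 and 89 of 370, and both group means of at least 500 gave 59 and 104. The fit with the replicate block gave 145 and 247; same-numbered libraries correlated at 0.294, 0.00135, 0.123, 0.0512 and 0.273 and 3 of 10 correlated best with their own number. Not every pair passed 0.1, so the numbers were not used as a pairing. The block also called MSTRG.66281 (adjusted p = 0.0163), MSTRG.36357 (adjusted p = 0.0266), MSTRG.55020 (adjusted p = 0.0273) and 13 of the 30 features on chromosome 16 lower. Without the most abundant feature the difference in read share turned to -0.337 percentage points (exact permutation p = 0.810). The median coefficient of variation was 14.8% to 20.7% when 1 library was left out, lowest without wild-type 1. Small log2 differences changed sign: for MSTRG.47665 to -0.12 (DESeq2), -0.076 (edgeR) and -0.12 (limma on 9 libraries), for MSTRG.39223 to -0.10, -0.053 and -0.072, for MSTRG.72085 to -1.21 (edgeR), and for MSTRG.54699 to -0.23, -0.22 and -0.12, and -0.15 without wild-type 1 and knockout 2. When 1 library was left out they ran from -0.044 to 0.20 for MSTRG.47665, from -0.12 to 0.44 for MSTRG.54699 and from -0.090 to 0.030 for MSTRG.24221. The cause was not tested. MSTRG.10215 lost its call in 9 of 22 alternatives (adjusted p 0.00786 to 0.131). The 9-library and 2-library alternatives were chosen after seeing the data.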
